A study of Mus musculus with 6 samples.

Results

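The genes described here are the protein-coding members of the replication-dependent histone clusters of the mouse. They were taken from the deposited gene table as all rows of biotype protein_coding whose name begins with Hist, a digit and h. The rule found 68 of 48709 genes: 6 for histone H1, 19 for H2A, 18 for H2B, 12 for H3 and 13 for H4. By locus, 55 lie in Hist1 on chromosome 13, 10 in Hist2 on chromosome 3, 2 in Hist3 on chromosome 11 and 1 in Hist4 on chromosome 6.

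Replication-dependent histone genes supply the protein on which newly copied DNA is wrapped. H2A, H2B, H3 and H4 form the core of the nucleosome, and H1 binds the linker DNA between nucleosomes. These genes are short and mostly without introns, and their mRNAs end in a conserved stem-loop in place of a poly(A) tail. The stem-loop is bound by SLBP, which takes part in the cutting, export, translation and decay of the mRNA. The messages build up while DNA is copied in S phase and are degraded when copying stops. In a resting lymphocyte population they are mostly taken as a sign of cells that are copying DNA, although some members also give poly(A)-tailed transcripts outside S phase.

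RNA came from natural killer T cells of the invariant kind (iNKT), which see lipid antigens presented by CD1d and were sorted by flow cytometry from mouse spleen. The labels list 6 samples in the resting state, 3 of genotype WT (wild type) and 3 of genotype Gpx4 cKO, in which Gpx4 is knocked out conditionally. Its product is the glutathione peroxidase that repairs lipid peroxides in membranes. The cell type in which Gpx4 is deleted, the age of the mice and the number of mice behind each sample: each is not given in the sources used here. The table names its 6 libraries by the numbers 18 to 23 with an index pair, and 0 of the 6 names occur in a label. No library was given a genotype, so the WT against Gpx4 cKO comparison of these genes was not made, and every value below belongs to a numbered library.

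Exon reads per library ranged from 903524 in library 21 and 1916746 in library 23 to 10122187 in library 19. Gpx4 itself was read at 3.20 to 31.3 CPM, where CPM is exon reads scaled to a library of 1000000 by TMM factors. Among markers of T and iNKT cells, all 9 listed genes were read in every library, and their sum was lowest in library 23 (4479 CPM) and highest in library 22 (5365 CPM). Markers of other cells were lower: the 7 B cell genes summed to 20.4 to 59.1 CPM and the 6 macrophage and monocyte genes to 5.37 to 7.24 CPM. The 3 NK cell genes summed to 5.78 to 10.9 CPM and the 4 neutrophil genes to 0.00 to 0.18 CPM, with S100a8 and Retnlg at 0 in all 6 libraries. The 5 plasma cell genes summed to between 244 CPM (library 18) and 1287 CPM (library 23), most of it from Jchain. Of 8 erythroid genes 7 were in the table, and their sum lay between 4.46 CPM (library 18) and 296 CPM (library 23).

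The sequence that sets these messages apart from other mRNAs was looked for first, because it bears on which RNA the libraries could hold. Whether the libraries were primed on poly(A) tails is not stated here. Reads of stem-loop messages and of poly(A)-tailed forms were therefore not told apart in any value below. GENCODE M21 transcripts on GRCm38 were found for 66 of the 68 genes, all but Hist1h2bh and Hist1h2bm. The letters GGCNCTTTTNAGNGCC, on the sense strand only, occurred in transcripts of 40 of these 66 genes. Over all 55450 genes of that annotation they occurred in 47, which is 0.0848%, and 7 of the 47 were not members. The cores fell into 2 families by their opening bases. All 9 H4 genes with a match had a core opening with GGCCC, and all 31 matches in H1, H2A, H2B and H3 genes opened with GGCTC. The most frequent core, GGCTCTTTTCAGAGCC, was found in 24 genes. The stem-loop of an abundant gene of each type with a match is shown from 5′ to 3′ as DNA letters, the core in capitals and up to 5 neighbouring bases in lower case.
Hist1h1c (H1): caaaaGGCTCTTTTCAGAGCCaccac
Hist1h2ap (H2A): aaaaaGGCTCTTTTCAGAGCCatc
Hist1h2bg (H2B): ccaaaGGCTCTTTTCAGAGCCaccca
Hist2h3c2 (H3): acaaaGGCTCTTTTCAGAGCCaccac
Hist1h4d (H4): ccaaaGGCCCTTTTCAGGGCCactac
On GRCm38 these cores lie at chr13:23739512-23739527 (+) for Hist1h1c, chr13:21833029-21833044 (-) for Hist1h2ap and chr13:23571843-23571858 (+) for Hist1h2bg. The core of Hist2h3c2 lies at chr3:96238485-96238500 (-) and that of Hist1h4d at chr13:23581950-23581965 (+). Each lies in the deposited exon, downstream of the stop codon.

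How far the deposited gene models reach past this stem-loop decides what a level per length means. A core could be placed for 38 members with a single deposited exon, and in all 38 it lay inside that exon. In 27 of them the exon ended at most 60 bases after the core (median 28). The mature message ends shortly after the stem-loop. In the other 11 the model ran on for 63 to 2445 bases. Hist4h4 had the longest extension, and Hist1h1c (840 bases), Hist2h4 (1257), Hist3h2a (1643) and Hist2h3c1 (1162) were among the others. For these, the deposited RPKM (reads scaled to exon length and library depth) divides by bases that a stem-loop message does not hold. At the other end of the scale, 14 of 60 models stopped at the stop codon and so reach no stem-loop.

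Promoter motifs were also counted, and their relation to the libraries in which members were highest was not tested. RefSeq windows on GRCm38.p6, from 250 bases before to 50 after the start, matched 62 members. A CCAAT box (CCAAT on either strand) was in the window of 53 of the 62, against 37.4% of all 32851 windows. It was present in all 6 H1, 18 H2A, 16 H2B and 10 H3 windows but in 3 of 12 H4 windows. The letters TATAAA, on either strand and anywhere in the window, were in 35 of the 62 windows, against 13.6% of all. Not every match is a TATA box of its own gene. That of Hist1h2bp is on the other strand and is the match of its neighbour Hist1h2an. The match of Hist1h4f lies at the upstream end of its window. The octamer ATTTGCAT, also searched on both strands, was in 7 of 18 H2A and 7 of 16 H2B windows and in no H1, H3 or H4 window, against 1.74% of all. These matches are not independent: H2A and H2B genes form 12 head-to-head pairs whose starts lie 235 to 305 bases apart, so that paired windows overlap. In 3 of the 10 pairs with both windows, the octamer was in both. The 250 bases before the start are shown for the most abundant H1 gene, for the most abundant H4 gene, whose window is among the few of H4 with a CCAAT box, and for Hist1h2bg, which has all 3 motifs. Capitals mark the 3 motifs or their reverse complements.
Hist1h1c, chr13:23738557-23738806 (+): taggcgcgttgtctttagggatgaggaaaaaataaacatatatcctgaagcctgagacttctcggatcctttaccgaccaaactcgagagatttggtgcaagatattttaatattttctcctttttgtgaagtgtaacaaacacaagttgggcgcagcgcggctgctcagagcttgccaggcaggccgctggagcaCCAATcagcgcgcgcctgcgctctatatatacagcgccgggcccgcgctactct
Hist1h4d, chr13:23581318-23581567 (+): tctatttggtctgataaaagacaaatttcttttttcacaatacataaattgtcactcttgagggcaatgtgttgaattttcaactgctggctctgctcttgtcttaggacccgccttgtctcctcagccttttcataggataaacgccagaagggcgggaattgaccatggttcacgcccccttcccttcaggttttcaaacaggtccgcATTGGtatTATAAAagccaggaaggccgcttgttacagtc
Hist1h2bg, chr13:23571150-23571399 (+): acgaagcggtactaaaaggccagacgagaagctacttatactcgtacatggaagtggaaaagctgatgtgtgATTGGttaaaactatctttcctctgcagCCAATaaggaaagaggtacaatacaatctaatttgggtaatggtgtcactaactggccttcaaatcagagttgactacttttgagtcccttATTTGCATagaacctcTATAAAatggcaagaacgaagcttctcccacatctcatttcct
A match to these letters describes the sequence and is not a measured binding site.

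Together the 68 genes took 58052 exon reads, 0.149% of exon reads in library 19 (exact 95% interval 0.146 to 0.151) and 0.268% in library 23 (0.261 to 0.275). Their summed level was 1908, 1416, 1968, 2668, 1662 and 2707 CPM in libraries 18 to 23. Libraries 21 and 23, the shallowest, were highest and close to each other, and library 19, the deepest, was lowest. The highest value was 1.91-fold the lowest (95% counting interval 1.85 to 1.97), and 1.62-fold without library 19. Intervals of this kind cover counting error alone and take the extreme libraries as given. In bulk RNA, fewer cells in S phase and less histone mRNA per cell cannot be told apart.

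Reads were found for 65 of the 68 genes, and 46 had a read in every library. The 3 genes without a read in any library were Hist1h2aa, Hist1h2ba and Hist1h4m. Hist1h2aa and Hist1h2ba are a head-to-head pair known from the testis, and the testis-specific linker histone gene Hist1h1t had 2 reads, both in library 18. A count of 0 allows a level of 0.282 CPM in the deepest library, 19, and of 3.62 CPM in the shallowest, 21. Most of the reads came from few genes. Hist1h1c alone held 29.0% of the member reads, the top 3 (Hist1h1c, Hist1h4d and Hist1h2ap) held 53.9%, and the top 7 held 81.5%.

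Per length, the order of the genes differed from the order by reads. The highest deposited RPKM was that of Hist1h4d, with a median of 340 over the libraries and a range of 247 to 429. Next came Hist1h2ap (median RPKM 176, range 152 to 458), Hist1h1c (170, 131 to 202) and Hist2h2aa1 (157, 106 to 206), whose ranges overlap. Hist1h1e (81.4, 58.8 to 97.5) and Hist1h1d (69.7, 42.4 to 103) also overlapped each other. Over the 68 genes, 6 had a median RPKM above 50, 16 were above 10 and 15 were below 1. The deposited exon of Hist1h1c runs 840 bases past its stem-loop, and where its reads lie along that exon was not examined.

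A chi-square test asked whether a gene's counts differed between the 6 libraries by more than counting error. It was run on the 9042 genes with at least 200 reads in total, with p-values adjusted over all of them by the Benjamini-Hochberg method, and it called 71.6% of them. Of the 68 members 28 had enough reads, and 26 of the 28 were called. The other 40 had at most 165 reads each and were not tested. Hist1h3f (adjusted p = 0.591 by the chi-square test) and Hist1h4i (adjusted p = 0.536) were the 2 tested members that were not called. The tested members had a median of 375 reads against 1291 for all tested genes, and the part of depth in the share called was not tested.

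The members also spread more widely than most genes. The ratio of the highest to the lowest CPM had a median of 2.58 over the 28 genes and of 1.57 over all 9042. It was above 2 for 21 of the 28 members, against 27.1% of all tested genes, and above 4 for 7, against 6.85% of all. Lower counts widen such a ratio and the members had fewer reads, and the part of this in the gap was not tested.

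The direction was shared among many of them. The highest CPM fell in library 21 or 23 for 23 of the 28 members, against 47.5% of all tested genes. Both libraries held the top values for 14 of 28, against 12.2% of all. Library 19 was the lowest for 13 of 28, against 14.0% of all. These libraries were singled out after their values were seen. Libraries 21 and 23 are the shallowest and the members had fewer reads. The part of counting error in these shares was not tested. The 37 members with reads that were not tested held 4.12% of the member reads, none above a median of 5.68 CPM. Of these 37 members, 19 were highest in library 21 or 23, a share near the 47.5% of all tested genes. By type of the tested genes, the highest value was in library 21 or 23 for 4 of 4 H1, 6 of 6 H2A, 6 of 7 H2B, 4 of 5 H3 and 3 of 6 H4 genes.

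**Figure D1:**
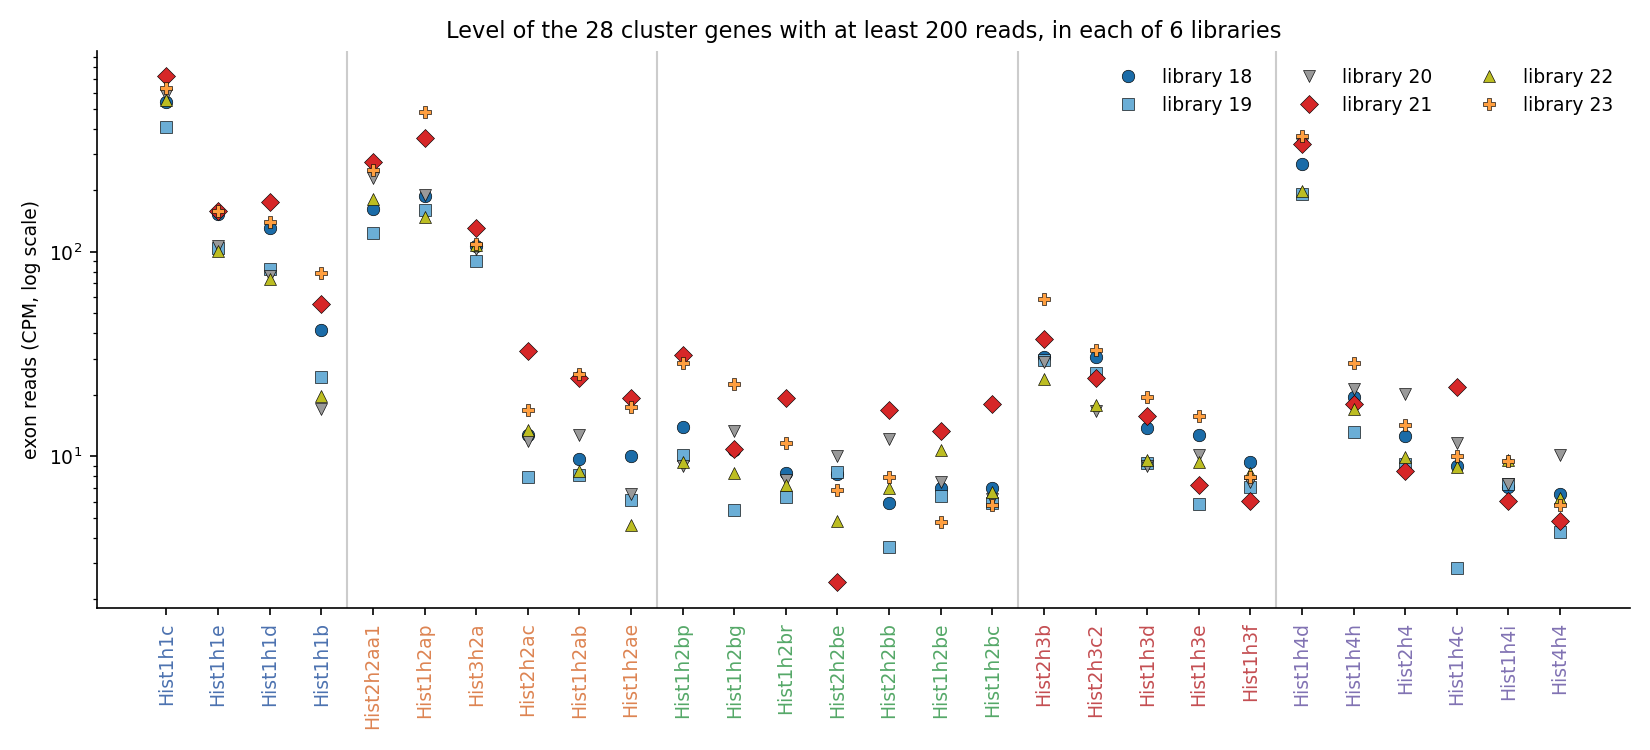
Exon reads in CPM (log scale) of the 28 cluster genes with at least 200 reads, grouped by histone type (label colour) and ordered by median within it; each marker is 1 library. The highest marker is that of library 21 or 23 for 4 of 4 H1, 6 of 6 H2A, 6 of 7 H2B, 4 of 5 H3 and 3 of 6 H4 genes.

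**Figure D2:**
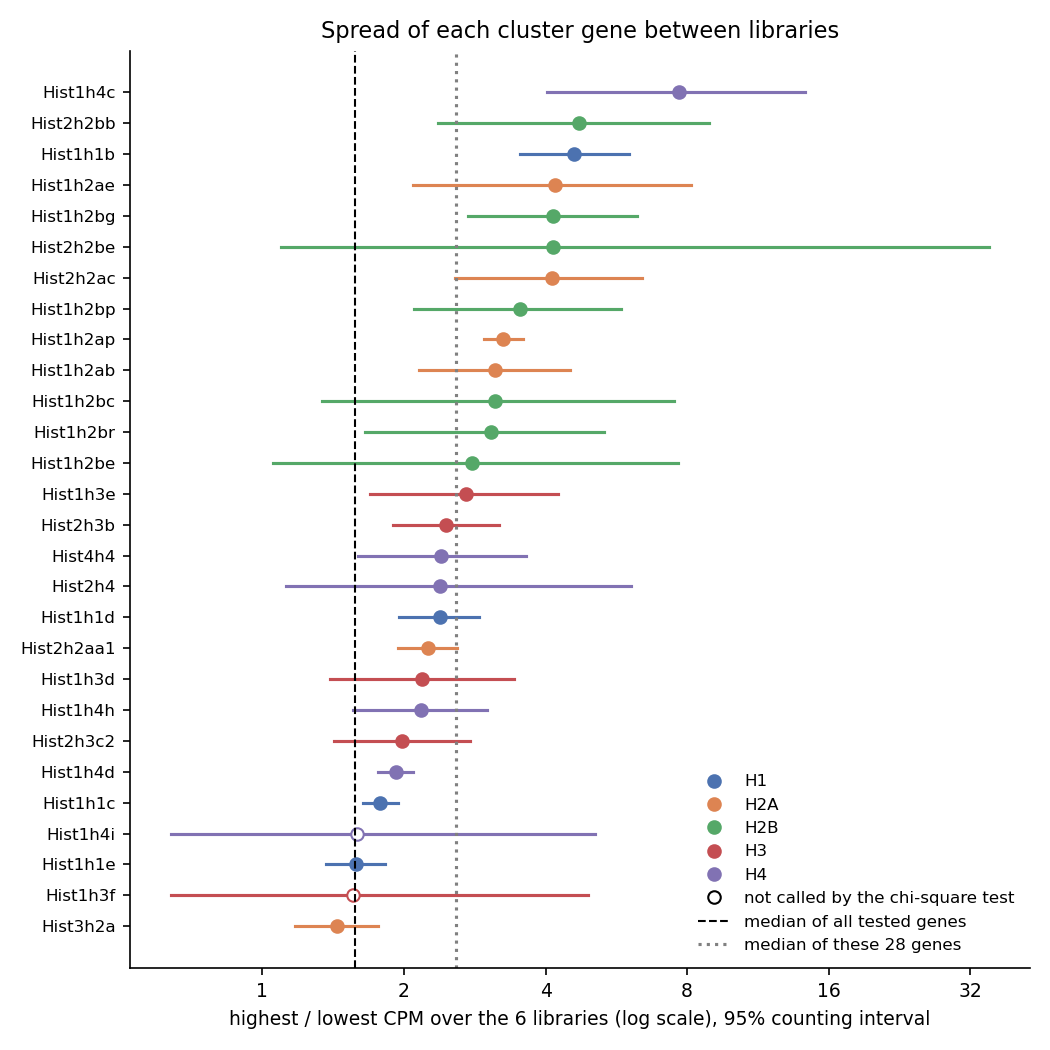
Ratio of the highest to the lowest CPM over the 6 libraries for the same 28 genes (log scale), with 95% counting intervals; colours give the histone type and open circles the 2 genes not called. The median ratio of these genes (dotted, 2.58) lies above that of all 9042 tested genes (dashed, 1.57), and Hist1h4c is the widest at 7.69.

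Linker histone H1 made up the largest share of the reads. Its 6 genes summed to 873, 620, 787, 1125, 749.6 and 1023 CPM in libraries 18 to 23. Library 21 was 1.81-fold above library 19 (95% counting interval 1.69 to 1.94). The share of H1 in the member reads had a median of 43.0% and ranged from 37.8% in library 23 to 45.8% in library 18. By RPKM, which divides by exon length, the median share was 26.5%. Counting uniquely mapped reads alone, which removes many core histone reads, it was 55.6%.

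Hist1h1c, which encodes a main linker histone of somatic cells, was the most read member (ENSMUSG00000036181, chr13:23738808-23740367, 16807 exon reads). It stood at 543, 406, 582, 724, 550 and 632 CPM in libraries 18 to 23. Library 21 was the highest and library 19 the lowest, and the 3 middle libraries lay close together. The ratio of the extremes, 1.78 (1.63 to 1.94), was among the smallest of the 28 genes, although its depth put the adjusted p at 9.28e-91 in the chi-square test.

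Hist1h1e, another main somatic linker histone, held 153, 104.6, 106, 158, 100 and 159 CPM in libraries 18 to 23. Libraries 18, 21 and 23 formed a high group and the other 3 a low group, 1.58-fold apart at the extremes (1.37 to 1.82). The same split was seen in Hist1h1d, at 131, 82.0, 76.2, 175, 73.5 and 140 CPM, where the extremes were 2.38-fold apart (1.96 to 2.89). Both genes were called by the chi-square test (adjusted p = 1.07e-30 and 5.55e-54).

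Hist1h1b encodes a linker histone known mainly from dividing cells. It was at 41.6, 24.3, 17.1, 55.5, 19.8 and 78.6 CPM in libraries 18 to 23. Library 23 was 4.60-fold above library 20 (3.53 to 6.02, chi-square adjusted p = 1.44e-52). All of its reads were uniquely mapped and it shared no 50-base stretch with another gene. Hist1h1a, with 165 reads, fell below the minimum for the test. Its levels were 3.98, 3.11, 5.82, 12.1, 5.54 and 14.2 CPM, again highest in libraries 21 and 23.

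**Figure D3:**
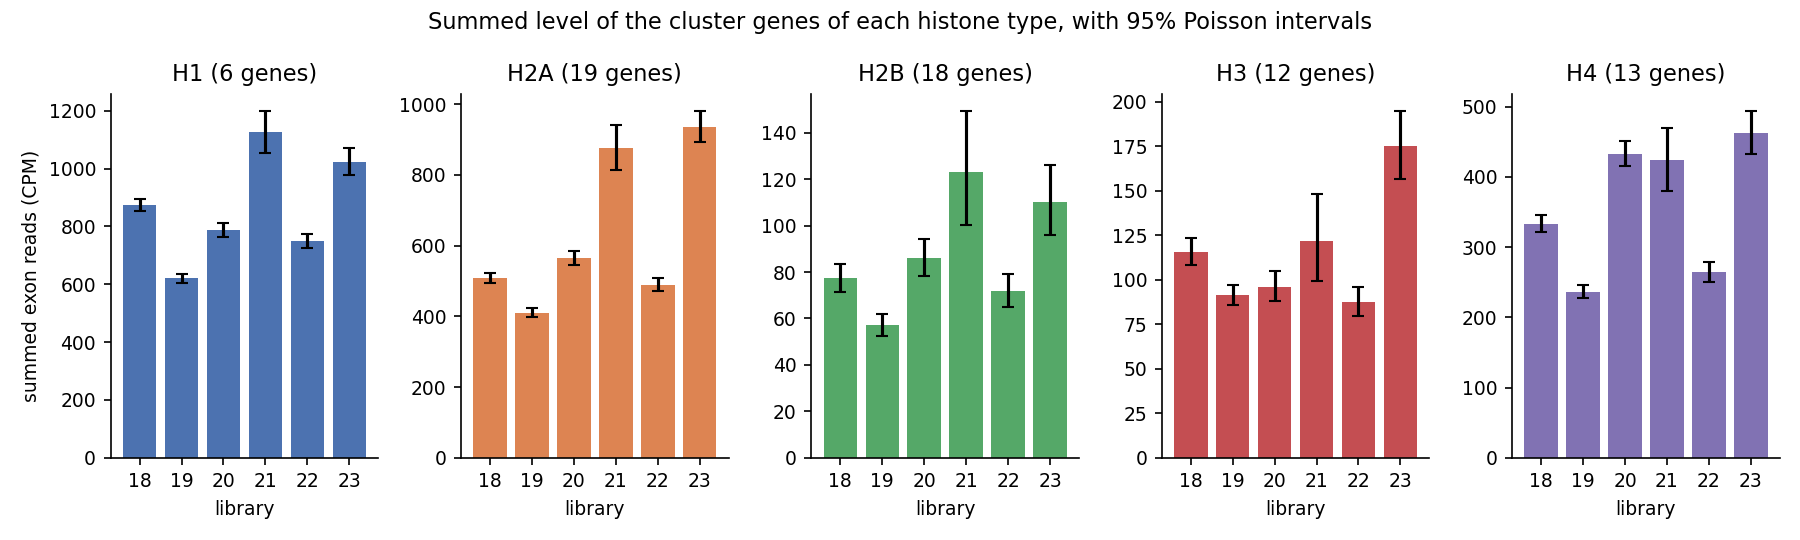
Summed exon reads in CPM of the cluster genes of each histone type in libraries 18 to 23, with exact 95% Poisson intervals; each panel has its own axis from 0. H1, H2A and H2B are highest in libraries 21 and 23, H3 stands out in library 23 at 175 CPM, and H4 is high in library 20 as well, at 433 CPM.

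H2A was next by reads, and its sum had the widest ratio of the 5 types, with an interval that overlapped those of H2B and H3. Its 19 genes summed to 508, 411, 565, 875, 489 and 936 CPM in libraries 18 to 23. Libraries 21 and 23 stood above the other 4 with intervals that did not overlap theirs, and library 23 was 2.28-fold above library 19 (2.16 to 2.41). H2A held a median of 29.2% of the member reads, 34.0% by RPKM. By unique reads alone its share was 15.03%, since 39.0% of its reads were uniquely mapped.

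Hist1h2ap, which encodes a main core H2A protein, led the type (ENSMUSG00000094777, chr13:21833026-21833507, 6311 reads). Its levels were 187, 160, 189, 360, 149 and 484 CPM in libraries 18 to 23. Libraries 21 and 23 lay far above the rest, 3.25-fold from highest to lowest (2.96 to 3.58), and the chi-square adjusted p was 2.93e-226. Only 26.4% of its reads were uniquely mapped, and 93.1% of its 50-base stretches occur in another gene, mostly in Hist1h2ao, which was given 48 reads. How the authors' counting divided shared reads is not given in the sources used here, so the level of this gene apart from its near-identical copies is uncertain. Added together, Hist1h2ap and Hist1h2ao were at 190, 160, 189, 362, 152 and 484 CPM, with libraries 23 and 21 again highest and library 22 lowest.

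Hist2h2aa1 had 5595 reads, and its near-identical copy Hist2h2aa2 had 1. Hist2h2aa1 stood at 161, 123, 230, 276, 182 and 250 CPM in libraries 18 to 23. Here library 20 was high along with 21 and 23, and the extremes were 2.25-fold apart (1.94 to 2.59, chi-square adjusted p = 2.04e-79). All 50-base stretches of Hist2h2aa1 occur in another annotated gene, and 59.6% of its reads were counted as unique. Those genes include Gm20633 and Gm20634, which overlap Hist2h2aa1 at the same place by 586 and 529 bases. The copy Hist2h2aa2, at another place, holds 479 of its 537 stretches.

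Hist3h2a was the steadiest of the 28 tested genes, at 107, 90.4, 103, 130, 107.6 and 109 CPM, with extremes 1.44-fold apart (1.17 to 1.76). Its call (chi-square adjusted p = 3.02e-04) was lost without library 19 (adjusted p = 0.307, the other alternatives from 1.42e-04 upwards). It lies wholly inside the span of Trim17 on the same strand, and 7.76% of its reads were unique. Reads from Trim17, which was given 22, and from Hist3h2a cannot be told apart over their shared exons.

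Hist1h2ae, which is paired head to head with Hist1h2bg, was a low but widely spread gene. It was at 10, 6.12, 6.55, 19.3, 4.62 and 17.4 CPM in libraries 18 to 23, with libraries 21 and 23 highest and extremes 4.18-fold apart (2.09 to 8.15, chi-square adjusted p = 2.04e-09). The tested Hist1h2ab and Hist2h2ac were also called and were highest in library 23 and library 21. Of the other 13 H2A genes, none reached 200 reads, and the highest of them was Hist1h2ak with 164.

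H2B genes were low throughout. All 18 together summed to 77.2, 57.1, 86.0, 123, 71.8 and 110 CPM in libraries 18 to 23. Library 21 was 2.16-fold above library 19 (1.73 to 2.66), and its interval overlapped that of library 23. H2B held a median of 4.19% of the member reads and 4.29% by RPKM. Nucleosomes hold as much H2B as H2A protein. The summed RPKM of H2A had a median of 388 (range 336 to 769) and that of H2B 52.3 (37.6 to 79.2), ranges that do not overlap. The 2 types were counted differently. Of the H2A exon reads 39.0% were unique, and 10.6% of H2A gene reads lay outside exons against 49.3% for H2B. All 5 members with more than 1 exon are H2B genes, so the H2B share can include reads from introns. RPKM also divides by long models in some H2B genes, such as Hist1h2br (2212 bases) and Hist2h2be (2620). The part of these in the gap was not tested. All 7 tested H2B genes were called, and all had a ratio above 2, against 71.6% and 27.1% of all tested genes. These 7 genes had at most 403 reads each, and lower counts widen such a ratio. The part of depth in this was not tested. The other 11 had at most 115 reads each.

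Hist1h2bp led with 13.9, 10.2, 8.91, 31.4, 9.41 and 28.5 CPM, so that libraries 21 and 23 stood apart from the other 4. Its extremes were 3.52-fold apart (2.10 to 5.78), and 91.8% of its 403 reads were unique. Hist1h2bg, the partner of Hist1h2ae, was at 10.7, 5.46, 13.3, 10.9, 8.31 and 22.7 CPM, highest in library 23, with library 21 close to library 18. The adjusted p-values of the chi-square test were 1.27e-14 for Hist1h2bp and 3.43e-11 for Hist1h2bg.

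Hist1h2br, a near-identical copy of Hist1h2bq, stood at 8.31, 6.31, 7.64, 19.3, 7.20 and 11.6 CPM, and 1.96% of its reads were unique. Its call (chi-square adjusted p = 0.00166) rested on library 21 and was lost without it (adjusted p = 0.169, the other alternatives from 8.57e-04 upwards). Hist2h2bb held 5.90, 3.58, 12.2, 16.9, 7.01 and 7.91 CPM, highest in libraries 21 and 20, 4.72-fold from end to end (2.36 to 8.92). Hist1h2be and Hist1h2bc were also highest in library 21, at 13.3 and 18.1 CPM.

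Hist2h2be was the only tested H2B gene whose highest value was not in library 21 or 23. It was at 8.19, 8.38, 10, 2.41, 4.80 and 6.85 CPM in libraries 18 to 23, lowest in library 21, where it had few reads. The ratio of 4.14 has a wide interval (1.09 to 35.1). Its call (chi-square adjusted p = 0.0273) was lost without library 21 (adjusted p = 0.0512) and without library 22 (adjusted p = 0.251, the lowest over the alternatives being 0.0151). Hist2h2be has a long deposited exon of 2620 bases, none of whose 50-base stretches is shared with another gene, and no stem-loop match was found in it. This gene is known to be expressed in cells that no longer divide, and any part of this in its levels was not tested.

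Core histone H3 was highest in library 23. Its 12 genes summed to 116, 91.2, 96.2, 122, 87.5 and 175 CPM in libraries 18 to 23. Library 23 stood above all others, library 21 lay close to library 18, and library 22 was lowest. The extremes were 2.0-fold apart (1.73 to 2.31). H3 held a median of 5.67% of the member reads, 6.5% by RPKM.

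The leading gene, Hist2h3b, was at 30.6, 29.5, 28.9, 37.4, 24.0 and 59.0 CPM. Library 23 was high and the other 5 lay between 24.0 and 37.4 CPM. The call (chi-square adjusted p = 7.63e-11) was lost without library 23 (adjusted p = 0.141, the other alternatives from 3.65e-11 upwards). Hist2h3c2 was at 30.6, 25.4, 16.7, 24.1, 17.9 and 33.2 CPM, with 0.754% of its 796 reads unique. Hist2h3b, Hist2h3c1 and Hist2h3c2 share long stretches, and their sum was 62.4, 55.9, 49.1, 61.5, 41.9 and 92.3 CPM, 2.20-fold from library 22 to library 23. Hist1h3d was likewise highest in library 23 and then in library 21, at 13.7, 9.23, 8.91, 15.7, 9.60 and 19.5 CPM with the chi-square adjusted p at 2.78e-04. Hist1h3e, also called, was highest in library 23 at 15.8 CPM. Hist1h3f, which was not called, was at 9.40, 7.06, 7.45, 6.03, 8.31 and 7.91 CPM, with library 18 highest. The other 7 H3 genes had at most 164 reads each.

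H4 was dominated by a single gene. The 13 H4 genes summed to 333, 237, 433, 424, 264 and 462 CPM in libraries 18 to 23, so that library 20 joined libraries 21 and 23 as high. The extremes were 1.95-fold apart (1.81 to 2.11). H4 held a median of 16.9% of the member reads. By RPKM its share was 27.6% and by unique reads 21.4%.

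Hist1h4d held 79.3% of all H4 reads (ENSMUSG00000061482, chr13:23581598-23581990, 8183 exon reads) and was the highest member per length. It was at 267, 193, 339, 337, 198 and 370 CPM in libraries 18 to 23. Libraries 20, 21 and 23 lay together at the top and libraries 19 and 22 together at the bottom, 1.92-fold apart (1.76 to 2.09, chi-square adjusted p = 7.98e-107). Nearly as many reads again were placed in the gene but outside its exon. They were 49.6% of its gene reads over all libraries, from 39.5% in library 23 to 52.6% in library 20.

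Among the lesser H4 genes, Hist1h4h was at 19.4, 13.1, 21.3, 18.1, 17.0 and 28.5 CPM, highest in library 23. Its call (chi-square adjusted p = 3.44e-05) was lost without library 19 (adjusted p = 0.0682, the other alternatives from 1.36e-05 upwards). Hist2h4 was at 12.5, 9.13, 20.2, 8.45, 9.97 and 14.2 CPM, highest in library 20 and lowest in library 21. Its call (chi-square adjusted p = 4.93e-07) was lost without library 20 (adjusted p = 0.127, the other alternatives from 2.07e-07 upwards). Hist1h4c was the widest of all 28, at 8.92, 2.82, 11.6, 21.7, 8.86 and 10.02 CPM. Its extremes, libraries 21 and 19, were 7.69-fold apart (4.04 to 14.3, chi-square adjusted p = 1.66e-12), and 70.9% of its gene reads lay outside the exon. Hist4h4, the only member from the Hist4 cluster and also called (chi-square adjusted p = 0.0018), was highest in library 20 at 10.2 CPM, and the other 7 H4 genes had at most 132 reads each.

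How the reads were placed differed by type and bears on every value above. Over all genes 97.2% to 97.6% of exon reads per library were uniquely mapped, and over the members 73.3% to 80.8%. By type the unique share was 99.7% for H1, 98.6% for H4, 79.6% for H2B, 62.0% for H3 and 39.0% for H2A. Among the 65 members with reads, 29 were at least 90% unique and 13 were under 50%. Of the 28 tested members, 17 were at least 90% unique, and 16 of these 17 were called. The summed level of the members at least 90% unique was 1.82-fold from lowest to highest, again lowest in library 19 and highest in library 21.

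Members also differed in reads that the table placed in the gene but not on its exons. Such reads were 17.4% to 25.7% of the member reads per library and 45.5% to 50.6% over all genes, most of which have introns. They were rarer for H1 (5.82%) than for H4 (47.1%) and H2B (49.3%). Most of those of H4 were in Hist1h4d, with 8039. The 5 members with more than 1 exon are all H2B genes, so the H2B share can include reads from introns. For members with a single exon, reads outside exons cannot come from an intron of the deposited model. Where they lie is not given in the sources used here. Adding them to the exon reads kept library 19 lowest for the summed level and put library 21 highest, 1.86-fold apart.

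**Figure D4:**
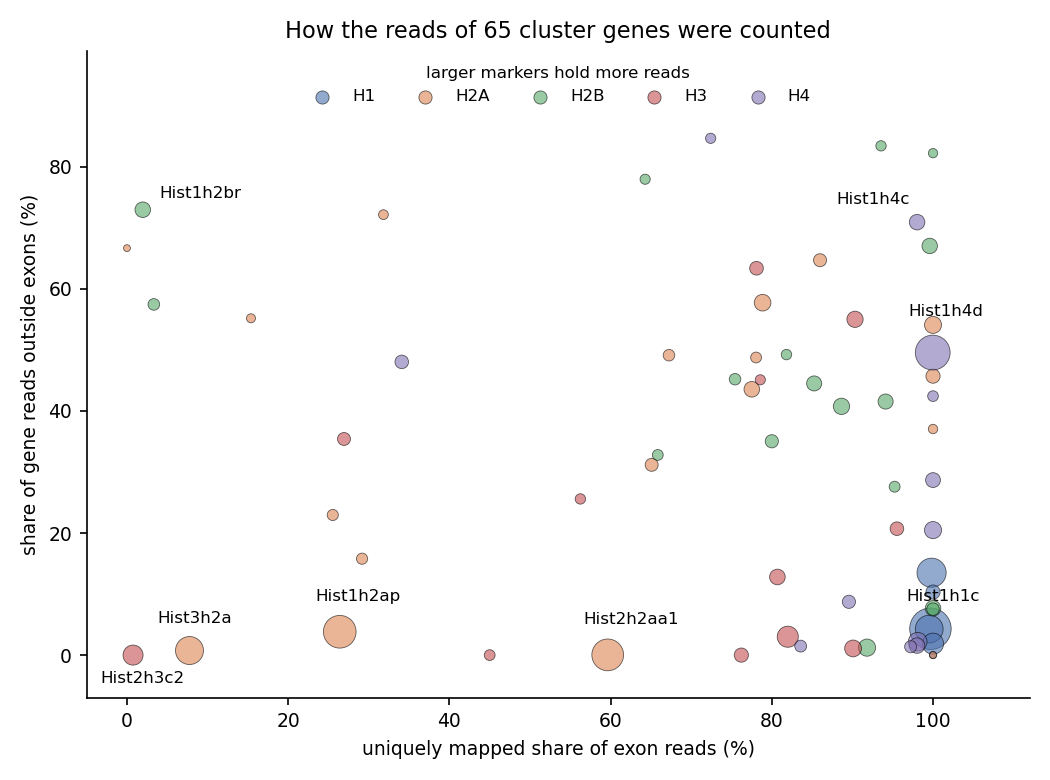
Share of exon reads that were uniquely mapped (x axis, %) against the share of gene reads that lay outside exons (y axis, %), for the 65 members with reads; colour gives the histone type and larger markers hold more reads. The large H1 genes sit at the lower right, the H2A genes Hist3h2a, Hist1h2ap and Hist2h2aa1 along the bottom with 7.76%, 26.4% and 59.6% unique reads, and Hist1h4d near the middle of the right edge.

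Other rows of the table overlapped 24 members, and 5 members were overlapped on the same strand. Most of these rows are predicted microRNAs or antisense transcripts and had 0 reads. Those with reads were Trim17 with 22, Gm42743 with 10, and 4930558J22Rik and Gm15444 with 3 each. Whether strand was used in counting is not given in the sources used here, so antisense reads cannot be told apart from those of the members.

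The genes that make and remove histone mRNA spanned a narrower range of summed level than the 1.91-fold of the histone genes. Of the 18 genes listed for transcription and 3′ end processing, 17 were tested and 15 were called, and 14 of the tested genes stayed under 2-fold. For comparison, 71.6% of all tested genes were called and 27.1% had a ratio above 2. The sum of the 18 listed genes was 1291 CPM at its lowest (library 19) and 1399 CPM at its highest (library 23), 1.08-fold. Npat, the coactivator of histone gene transcription, was at 75.1, 68.0, 88.2, 72.4, 71.3 and 76.4 CPM in libraries 18 to 23. Slbp, which encodes the stem-loop binding protein, was at 60.2, 57.2, 76.4, 74.8, 61.3 and 60.1 CPM. Both were highest in library 20. All 11 listed decay genes were tested, 7 were called and none reached 2-fold. Eri1, the exonuclease that trims the stem-loop, was not called (chi-square adjusted p = 0.47) at 43.2 to 52.2 CPM.

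Replication-independent histones, most of which come from ordinary poly(A)-tailed mRNAs and can be made outside S phase, also spanned a narrower range of summed level. Of 11 listed genes 9 were tested, 8 were called and 7 of the tested stayed under 2-fold. Of all tested genes 71.6% were called and 27.1% had a ratio above 2, so the share under 2-fold was near that of all genes. The sum of the 11 listed genes lay between 1491 CPM (library 19) and 1824 CPM (library 18), 1.22-fold. H3f3b, for example, was at 586, 394, 491, 463, 478 and 395 CPM, highest in library 18. H2afz was the main exception among the abundant ones, at 212, 174, 188, 256, 198 and 382 CPM, highest in library 23 and then in library 21. H1f0, the linker histone of resting cells, was lowest in library 23, at 75.9 CPM against 134 to 148 CPM in the other 5.

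Libraries 23 and 21, the highest for the summed histone genes, were also the highest for the S phase and mitosis lists. The 23 S phase genes summed to 854, 758, 768, 973, 806 and 1205 CPM in libraries 18 to 23, 1.59-fold from library 19 to library 23. Of their 15 tested members 14 were called and 9 stayed under 2-fold. Among all tested genes, 71.6% were called and 27.1% had a ratio above 2. Rrm2, a subunit of ribonucleotide reductase, was at 18.2, 20.3, 15.8, 31.4, 15.3 and 45.9 CPM, while Pcna, the sliding clamp, was at 155 to 178 CPM and was not called (chi-square adjusted p = 0.44). The 18 mitosis genes spread more, at 498, 576, 348, 1142, 399 and 1208 CPM, 3.47-fold from library 20 to library 23, and all 11 tested were called. Mki67, a marker of cycling cells, was at 201, 250, 171, 392, 177 and 558 CPM. Among the other 4 libraries the orders differed: library 20, the highest of them for the summed histone genes, was lowest for mitosis genes, and library 19, lowest for the histone genes, was the highest of them for mitosis genes. Among 12 histone chaperone genes all were called and 6 stayed under 2-fold, and Nasp, which carries H3 and H4, was at 48.7, 41.4, 55.6, 222, 44.7 and 85.4 CPM.

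**Figure D5:**
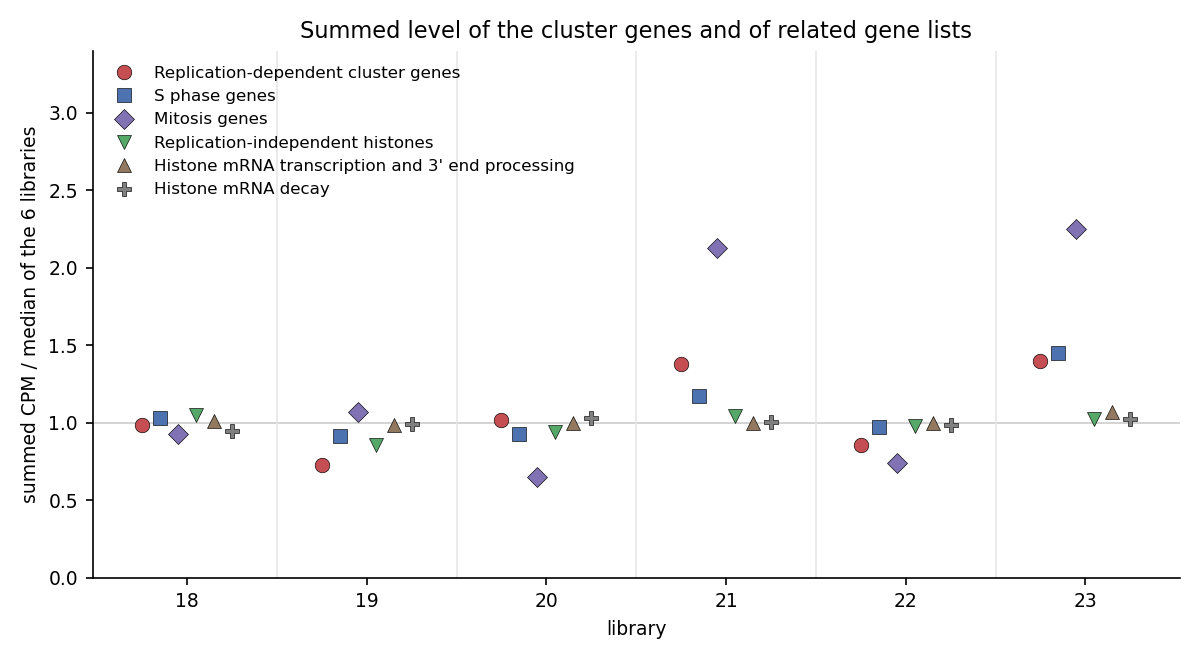
Summed CPM of the 68 cluster genes and of 5 gene lists, each divided by its own median over the 6 libraries; each marker is 1 list in 1 library. Libraries 21 and 23 are highest for the cluster genes, the S phase genes and the mitosis genes, while the lists for processing and decay of histone mRNA stay near 1 (1.08-fold and 1.09-fold from lowest to highest).

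Several features of the libraries moved with these results in part. Library 23 was highest for all 3 of the cluster genes, the erythroid list and the plasma cell list, and libraries 21 and 23 had the fewest reads. These libraries also had the highest mitochondrial share of exon reads, at 4.99% and 4.15% against 3.36 to 3.62% in the other 4, and the lowest share of Lars2, at 1.88% and 1.68% against 2.37 to 2.84%. The summed iNKT and T cell markers were lowest in both, at 4664 and 4479 CPM against 5036 to 5365 CPM. Library 18, lowest for erythroid and plasma cell markers, was in the middle for the histone genes. The part of these features in the histone levels was not tested. The head-to-head pairs, which share the region between their starts, differed in how far apart the levels per length of their partners lay. Hist1h2ap had a median RPKM of 176 and its partner Hist1h2br 1.69, and Hist2h2ac had 12.2 against 1.34 for Hist2h2be. The deposited exons of both H2B partners are long, at 2212 and 2620 bases, and 1.96% of the reads of Hist1h2br were unique. Some pairs were closer, with Hist1h2ac and Hist1h2bc at 3.24 and 4.25, Hist1h2ag and Hist1h2bj at 1.09 and 0.848, and Hist1h2ad and Hist1h2bf at 1.13 and 1.35. Others were farther apart. Hist1h2an and Hist1h2bp were at 1.51 and 8.30, and Hist1h2ak and Hist1h2bn at 6.49 and 1.14. Hist1h2ao and Hist1h2bq were at 1.41 and 0.323, Hist1h2ai and Hist1h2bl at 0.383 and 1.18, and Hist1h2ah and Hist1h2bk at 0.00 and 2.80. The genes of these farther pairs had from 13 (Hist1h2ah) to 403 reads (Hist1h2bp). Over the pairs with reads, the unique share of a partner ran from 1.96% (Hist1h2br) to 100% (Hist1h2ak). It was 25.5% for Hist1h2ad and 15.4% for Hist1h2ah. The part of shared reads in how close the partners lie was not tested. Hist1h2aa and Hist1h2ba had no reads. Hist1h2ae and Hist1h2bg had medians of 8.52 and 10.3. In the last pair the ranges over the libraries overlapped, from 4.93 to 18.3 and from 5.78 to 21.7.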

How the data were processed

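Library preparation used total RNA of sorted cells, a NucleoSpin RNA XS Micro kit and a QIAseq UPXome kit, per the labels' protocols. Genome builds are listed as GRCm38 and mm10, per the submitters' processing notes. Aligner, counting tool, annotation release, strand use and the treatment of multiply mapped reads: each is not given in the sources used here. The authors deposited 1 table of 48709 genes. Per the file headers it holds whole read counts on exons, RPKM scaled by the authors to exon length and depth, the fraction of exon reads that were uniquely mapped, and the ratio of intron to total gene reads. The table's 10 other columns of values per library were not used. Unique reads and reads outside exons were recovered from the counts and these deposited shares.

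CPM were computed from the deposited counts with TMM factors from edgeR 4.0.16 (R 4.3.3) over 9510 genes. Differences between libraries were tested by a chi-square test (5 degrees of freedom) against the effective library sizes, for genes with at least 200 reads. Its p-values had Benjamini-Hochberg adjustment and a threshold of 0.05, in scipy 1.17.1. Beforehand the test was run on simulated counts, which held Poisson error alone and so do not show how it behaves on real libraries. The test covers counting error only, and reads may include PCR copies. It says nothing of genotype: the planned edgeR comparison of genotypes was not run, as no library matched a label. Shares have exact binomial and levels exact Poisson intervals at 95%, and a count of 0 allows 3 reads.

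Named genes are the 3 members of each type with the highest median CPM and the 5 other tested members with the widest ratio. Other genes and libraries were singled out after their values were seen. The members, gene lists and markers were chosen with earlier results of these data known.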

Additional observations from a re-analysis of the deposited data

How the results depend on the processing

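Between 16 and 24 members differed between libraries when 1 library was left out, against 26 with all 6, and 61.2 to 68.3% of all tested genes did. The lowest count, 16 of 19 tested, came without library 19, and without library 21 it was 23 of 28. With at least 50 reads in total 41 of 45 members were called, against 69.3% of all genes, and with no minimum 53 of 65, against 53.9%. With reads outside exons added, 29 of 32 were called against 85.2%. The count was 26 of 28 on DESeq2 1.42.0 size factors and on total exon reads as library size, 23 of 25 on unique reads and 25 of 27 with copies merged, against 71.0 to 73.5% of all genes. The 1.91-fold range of the summed level was 1.62 to 1.91 when 1 library was left out. It was 1.80 on total exon reads, 1.80 without mitochondrial genes and Lars2, and 1.82 for members at least 90% unique. On total exon reads the range was 1.58 for H1 and 2.15 for H2A. Shares of the member reads moved with the unit. By RPKM they were 26.5% for H1, 34.0% for H2A, 6.5% for H3 and 27.6% for H4, and by unique reads 55.6%, 15.03%, 4.48% and 21.4%. The cause was not tested. Of 165 values of 20 named members under these alternatives, 158 stayed on their side of the threshold. The other 7 lost their call when 1 library was left out and are given beside the genes. Library 21 replaced library 23 as highest for the summed level on unique reads, with reads outside exons added, without the 3 most abundant members, for members at least 90% unique and without library 23, and library 22 replaced library 19 as lowest without library 19. Library 21, with 903524 exon reads, limits the low members most. No paired analysis was possible because the table's library names carry no replicate number or genotype from the labels. The genotype tests by edgeR and DESeq2 were not run for the same reason. None of the alternatives was chosen without knowledge of earlier results. Adding reads outside exons, merging copies and the 90% limit were added after seeing the data.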
